A study of Homo sapiens with 18 samples.

Results

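Mitosis genes were followed through an experiment on a human embryonic stem cell line. A set of 34 genes was chosen by name as one that works in mitosis: cyclins and kinases that start it, the spindle checkpoint and the ubiquitin enzymes that end it, the chromosomal passenger complex, kinetochore proteins, motors and proteins of the spindle and midzone, and topoisomerase II alpha. The array's probe sets named 18417 genes by a single symbol, and 33 of the 34 mitosis genes were among them, each read on the probe set with the highest mean. CENPA, the centromeric histone, was only on a probe set that also names SLC35F6 and was not analysed here.

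The cells were H1, an established human embryonic stem cell line that grows as undifferentiated, pluripotent cells and can form all body lineages. Pluripotent cells grew in mTeSR1 medium on Matrigel, with no feeder cells. Embryoid bodies, aggregates in which the cells differentiate, were made in Aggrewell plates in APEL medium and taken at 6 days. Each state came untransduced, with a lentivirus carrying a control shRNA, or with a lentivirus carrying an shRNA against KBTBD8, which gives 6 groups of 3 arrays and 18 arrays in all. Each microarray measured RNA as a log2 intensity per probe set. KBTBD8 picks the substrates of a CUL3 ubiquitin ligase. The question was how these genes differed between the states and between the treatments. The labels give neither the hairpin sequences nor the number of cell clones, and they do not name separate cultures, although the series' design text calls the samples of a condition independent. The p-values therefore measure the spread between arrays, which may be technical.

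Mitosis is switched on when cyclin B and CDK1, helped by PLK1 and the Aurora kinases, condense chromosomes and build the spindle. The checkpoint kinases and adaptors BUB1, BUB1B, BUB3, MAD2L1 and TTK hold back CDC20 until every kinetochore is attached. CDC20 and the ubiquitin carrier UBE2C then drive the anaphase-promoting complex to destroy cyclin B and securin, the product of PTTG1, and the midzone motors and ECT2 finish division. Most of these transcripts peak in late G2 and mitosis, since the MuvB complex with FOXM1 or MYBL2 acts on the cell cycle homology region of their promoters, beside CCAAT boxes bound by NF-Y. Embryonic stem cells divide fast, with a short G1 phase that lengthens as they differentiate.

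The promoter sequences show these shared elements. RefSeq promoters of GRCh38.p14, matched by symbol, gave 32 promoters of 28 of the 34 genes. AURKA, BUB3, TTK, TPX2, BIRC5 and UBE2C were not matched. In the 250 bases before the start of transcription, searched on both strands, the letters TTTGAA of the cell cycle homology region were in 16 of the 32 promoters (50%) and in 13.3% of all 35116 promoters of the table. CCAAT was in 26 of the 32 (81.2%) and in 32.0% of all. Both were present in 14 (43.8%), against 5.05% of all promoters, counting TTTGAA or its variant TTCGAA. This variant by itself was in 0 of the 32 and in 1.19% of all. The E2F-type letters TTGGCGC were in 3 of the 32 (9.38%, against 2.56% of all), and TTCCCGC was in 1 (3.12%, against 5.52%). TTGGCGC can share the letters TTGG with the complement of CCAAT. A match is only a description of letters in this window.

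The 6 windows printed here were chosen because they hold both elements and belong to the genes that differed most between untransduced pluripotent cells and embryoid bodies among those that do. Capitals mark CCAAT or its reverse complement ATTGG and TTTGAA or its reverse complement TTCAAA. Each is written 5′ to 3′ on the strand of the gene, which is the plus strand except for TOP2A. The windows are chr15:59104896-59105134 for CCNB2, chrX:70290034-70290087 for KIF4A, chr10:92593065-92593119 for KIF11, chr16:23678804-23678877 for PLK1, chr17:40417933-40418146 for TOP2A and chr3:172750599-172750684 for ECT2.
CCNB2: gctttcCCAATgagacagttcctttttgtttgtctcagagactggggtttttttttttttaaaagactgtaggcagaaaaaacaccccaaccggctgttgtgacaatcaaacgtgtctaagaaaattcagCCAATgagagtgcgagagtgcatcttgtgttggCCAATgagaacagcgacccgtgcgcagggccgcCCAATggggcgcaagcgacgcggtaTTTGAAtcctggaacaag
KIF4A: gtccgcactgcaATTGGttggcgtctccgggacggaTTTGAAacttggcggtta
KIF11: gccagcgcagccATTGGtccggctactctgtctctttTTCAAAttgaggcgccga
PLK1: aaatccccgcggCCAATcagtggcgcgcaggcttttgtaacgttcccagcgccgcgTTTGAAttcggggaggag
TOP2A: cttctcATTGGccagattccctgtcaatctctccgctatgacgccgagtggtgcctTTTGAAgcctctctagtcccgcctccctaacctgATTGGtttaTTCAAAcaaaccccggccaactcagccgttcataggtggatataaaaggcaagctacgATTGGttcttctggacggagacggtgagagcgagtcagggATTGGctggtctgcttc
ECT2: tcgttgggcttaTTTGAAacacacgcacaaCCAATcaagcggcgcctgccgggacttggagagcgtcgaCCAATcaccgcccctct
In CCNB2, KIF4A and KIF11 the nearest CCAAT box lay 20, 19 and 20 bases before TTTGAA or its complement, and in PLK1 it lay 39 bases before. The TTTGAA match of these 4 genes began between 28 and 34 bases upstream of the start. The other 2 windows were laid out differently. In TOP2A the matches began 194 and 151 bases upstream, with the nearest CCAAT box 45 and 4 bases before. In ECT2 the match began 115 bases upstream, ahead of both CCAAT boxes, which began at 97 and 58. Within 50 bases of the start, a window chosen after the matches were seen, TTTGAA was in 10 of the 32 promoters (31.2%) and in 2.28% of all. The 13 measured genes with a TTTGAA match in the 250 bases and the 14 without one had median differences of 0.16 and 0.22 between untransduced embryoid bodies and pluripotent cells, with 6 higher and 2 lower of the 13 and 7 higher and 1 lower of the 14.

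The mitosis genes were well measured on every array. On each of the 18 arrays all 33 exceeded that array's 40th percentile, and 31 exceeded its 75th, with log2 intensities from 7.03 to 11.91. A log2 difference of 1 is a 2-fold change in intensity. Their 6 group means spread little. The range from the lowest to the highest group mean had a median of 0.50 over the 33 genes, beside 0.61 over all 14209 genes tested, and it ran from 0.28 for AURKB to 1.11 for CCNB2. CCNB2 was the 1 mitosis gene with a range of 1 or more, as 21.3% of all genes tested had. The median standard deviation within a group was between 0.06 and 0.11 for these genes. Untransduced embryoid bodies held the highest group mean for 15 of them, and the control shRNA groups held the lowest for 19, 10 in pluripotent cells and 9 in embryoid bodies. No such counts over all genes stand beside these, so they only describe the 33 genes.

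**Figure D1:**
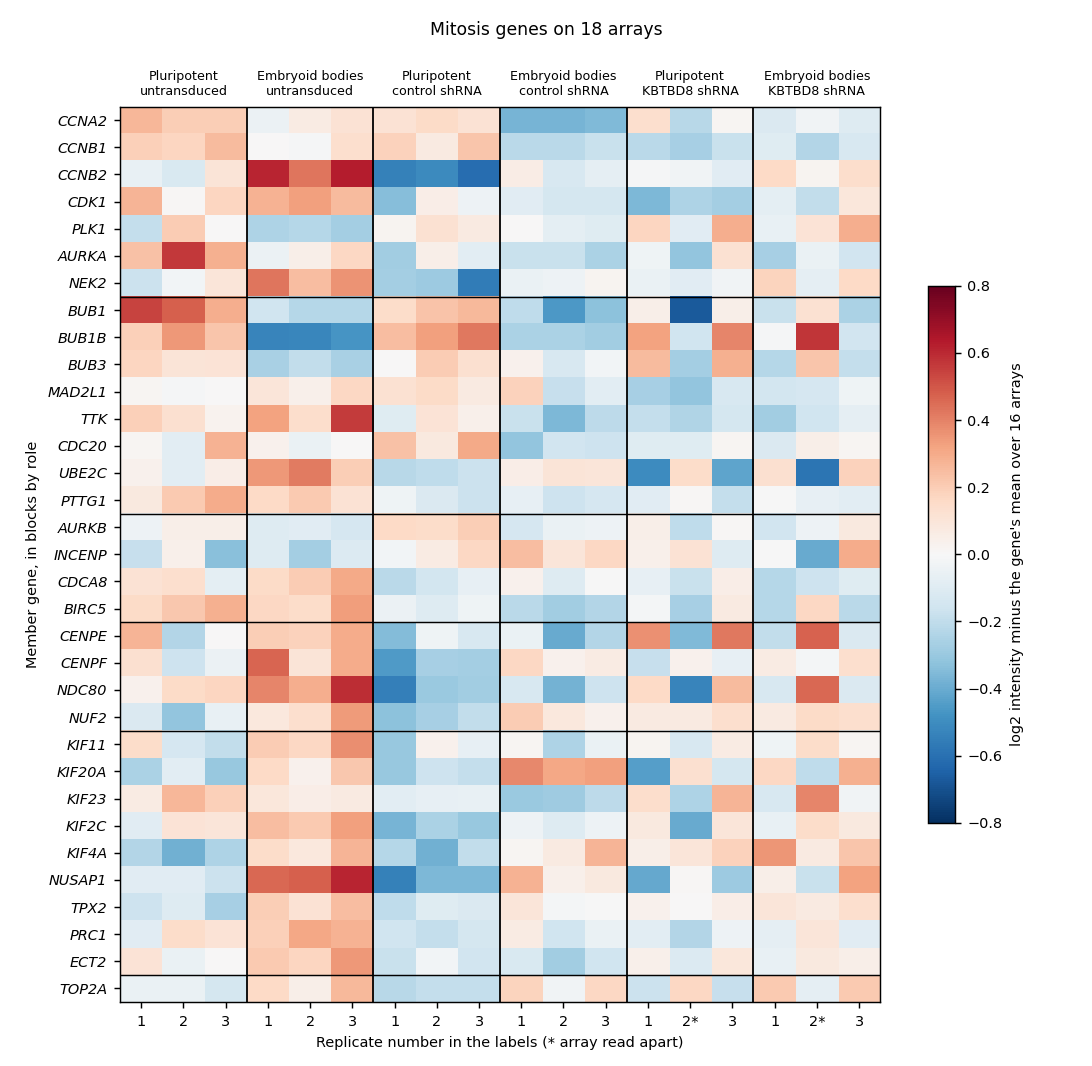
Log2 intensity of the 33 mitosis genes (rows, in blocks by role) on the 18 arrays (columns, by group and replicate number), each minus the gene's mean over 16 arrays, with asterisks at the arrays read apart. BUB1 and BUB1B were high on the pluripotent arrays and low on those of embryoid bodies, apart from the arrays with asterisks, while CCNB2 and NUSAP1 were highest in untransduced embryoid bodies.

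Both arrays numbered 2 of the KBTBD8 shRNA stood with the state opposite to their labels. Over all genes tested, the library labelled pluripotent correlated best with embryoid bodies of the same shRNA (r = 0.990, against 0.908 with its own group), and the library labelled embryoid bodies correlated best with pluripotent cells (0.993 against 0.914). Each of the remaining 16 correlated best with its labelled group. Among the mitosis genes, the first was nearer the other state for 25 of 33 genes and the second for 26, as for 76.1% and 76.0% of all genes. The labels were kept. Both arrays were left out of the main results, which rest on 16 arrays with 2 in each KBTBD8 shRNA group, and results of the mitosis genes on all 18 arrays stand beside them.

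KBTBD8 itself checked the shRNA labels. Its values were 6.50, 6.43 and 6.03 in untransduced pluripotent cells, 6.39, 7.09 and 7.03 with the control shRNA and 5.13 and 4.96 with the KBTBD8 shRNA. In pluripotent cells it was lower with its shRNA than with the control shRNA, with no overlap (-1.79 ± 0.26, limma adjusted p = 2.82e-04; -1.96 on all 18 arrays). In embryoid bodies it was low under every treatment, with values of 4.54, 5.06 and 4.07 in untransduced cells, 4.43, 4.79 and 5.04 with the control shRNA and 4.86 and 4.66 with its own shRNA. There the shRNA difference was 0.01 ± 0.26 (adjusted p = 0.998), so in embryoid bodies the knockdown was not seen in the KBTBD8 signal. The arrays read apart gave 4.55 and 5.12.

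In untransduced cells, 6 days as embryoid bodies raised most of the spindle genes and lowered the BUB checkpoint genes. Of the 33 mitosis genes, 15 rose and 5 fell at an adjusted p under 0.05, while 25.8% of all genes tested rose and 26.3% fell. Their median difference was 0.20, beside -0.04 over all genes tested. The changes were small: 0 of the 33 reached 2-fold, which 9.40% of all genes tested did with a call. On bulk RNA, a different share of cells in mitosis and a different amount of transcript per cell cannot be told apart, here or in any comparison that follows.

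Among cyclins and kinases, 2 of 7 rose and 2 fell. CCNB2, the cyclin B partner of CDK1 found at the Golgi, read 9.34, 9.28 and 9.50 in pluripotent cells and 10.01, 9.83 and 10.03 in embryoid bodies. The groups did not overlap, and CCNB2 rose by 0.58 ± 0.09 (1.5-fold, adjusted p = 2.78e-05). NEK2, a kinase that splits the centrosomes, rose from 8.23, 8.38 and 8.50 to 8.83, 8.65 and 8.76 (0.38 ± 0.09, adjusted p = 0.00237), again without overlap. AURKA, the kinase of spindle poles, went the other way, from 8.28, 8.61 and 8.33 to 8.0, 8.09 and 8.21 (-0.31 ± 0.10, adjusted p = 0.0199). PLK1, which triggers mitotic entry and centrosome maturation, went from 9.68, 10.07 and 9.87 to 9.62, 9.64 and 9.60. PLK1 fell by 0.26 ± 0.10 (adjusted p = 0.0451), a call lost in 17 of 25 other settings, among them the fit on all 18 arrays.

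The main mitotic cyclin and its kinase did not pass the threshold. CCNB1, which makes CDK1 active, read 10.57, 10.55 and 10.63 in pluripotent cells and 10.38, 10.37 and 10.51 in embryoid bodies (-0.16 ± 0.07, adjusted p = 0.0738). CDK1 read 8.25, 7.99 and 8.15 and 8.26, 8.31 and 8.23, overlapping, with a difference of 0.14 (95% interval -0.07 to 0.35, adjusted p = 0.263). CCNA2, the cyclin of S phase and G2, was just short of the threshold (-0.17 ± 0.07, adjusted p = 0.0506).

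The checkpoint and anaphase genes held the largest decreases: 3 of 8 fell and 1 rose. BUB1B, which binds and inhibits CDC20, read 10.32, 10.48 and 10.35 in pluripotent cells and 9.60, 9.61 and 9.66 in embryoid bodies. It fell by 0.76 ± 0.08 (1.69-fold, adjusted p = 3.94e-07), and the gap between the groups was several times the spread within them. BUB1, the kinase that recruits the checkpoint to kinetochores, went from 9.79, 9.73 and 9.54 to 9.09, 9.02 and 9.02 and fell by 0.64 ± 0.08 (adjusted p = 8.21e-06). BUB3, which carries both to the kinetochore, went from 10.20, 10.13 and 10.14 to 9.77, 9.83 and 9.77 and fell by 0.36 ± 0.07 (adjusted p = 6.13e-04). All 3 were separated without overlap, which picking called genes favours, and each kept its call in all 25 other settings. Their partners in the same checkpoint did not follow: MAD2L1 differed by 0.10 ± 0.09, and TTK, a kinase upstream of them, by 0.22 ± 0.10, with adjusted p of 0.387 and 0.0851. UBE2C rose by 0.32 ± 0.08 (adjusted p = 0.00228), while CDC20 (-0.07 ± 0.10) and PTTG1 (-0.03 ± 0.08) did not pass the threshold.

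None of the 4 chromosomal passenger genes (AURKB, INCENP, CDCA8, BIRC5) was called, with differences from -0.12 to 0.16 and a count of 0 also at an unadjusted p under 0.05 in limma. AURKB, the kinase of the complex, read 9.37, 9.46 and 9.46 and 9.31, 9.32 and 9.28 (-0.12 ± 0.07, adjusted p = 0.174). Of the 4 kinetochore genes measured, 3 rose. NUF2 and NDC80, which form the complex that holds microtubules, rose by 0.35 ± 0.09 and 0.31 ± 0.10 (adjusted p = 0.00443 and 0.0161), and CENPF, a large outer kinetochore protein, rose by 0.32 ± 0.10 (adjusted p = 0.0141) although its arrays overlapped. CENPE, the kinetochore motor, differed by 0.21 ± 0.12 (adjusted p = 0.162).

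The spindle and midzone genes were higher in embryoid bodies with 1 exception: 8 of 9 rose and 0 fell, with a median difference of 0.31. NUSAP1, which bundles spindle microtubules near chromosomes, went from 9.46, 9.46 and 9.38 to 10.01, 10.03 and 10.16. NUSAP1 rose by 0.63 ± 0.09 (1.55-fold, adjusted p = 3.03e-05), with no overlap. KIF4A, a chromosome-bound motor that also shortens midzone microtubules, went from 8.94, 8.79 and 8.93 to 9.32, 9.26 and 9.45 (0.46 ± 0.09, adjusted p = 5.47e-04). TPX2, which activates AURKA on the spindle, went from 10.33, 10.39 and 10.23 to 10.69, 10.61 and 10.74 (0.36 ± 0.07, adjusted p = 6.15e-04). AURKA itself fell in the same comparison, as given above. The other 5 that rose were KIF20A, KIF11, KIF2C, ECT2 and PRC1, by 0.20 to 0.35. PRC1 lost its call in 16 of 25 other settings. KIF23, a subunit of the centralspindlin complex, was the member of the group that was not called (-0.10 ± 0.07, adjusted p = 0.296). TOP2A, which untangles DNA before chromosomes separate, rose by 0.23 ± 0.08 (adjusted p = 0.0188). With both arrays read apart included, 8 of the 33 genes rose and 3 fell, beside 20.5% and 18.1% of all genes. Fitted on the 6 untransduced arrays alone, 13 were called.

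**Figure D2:**
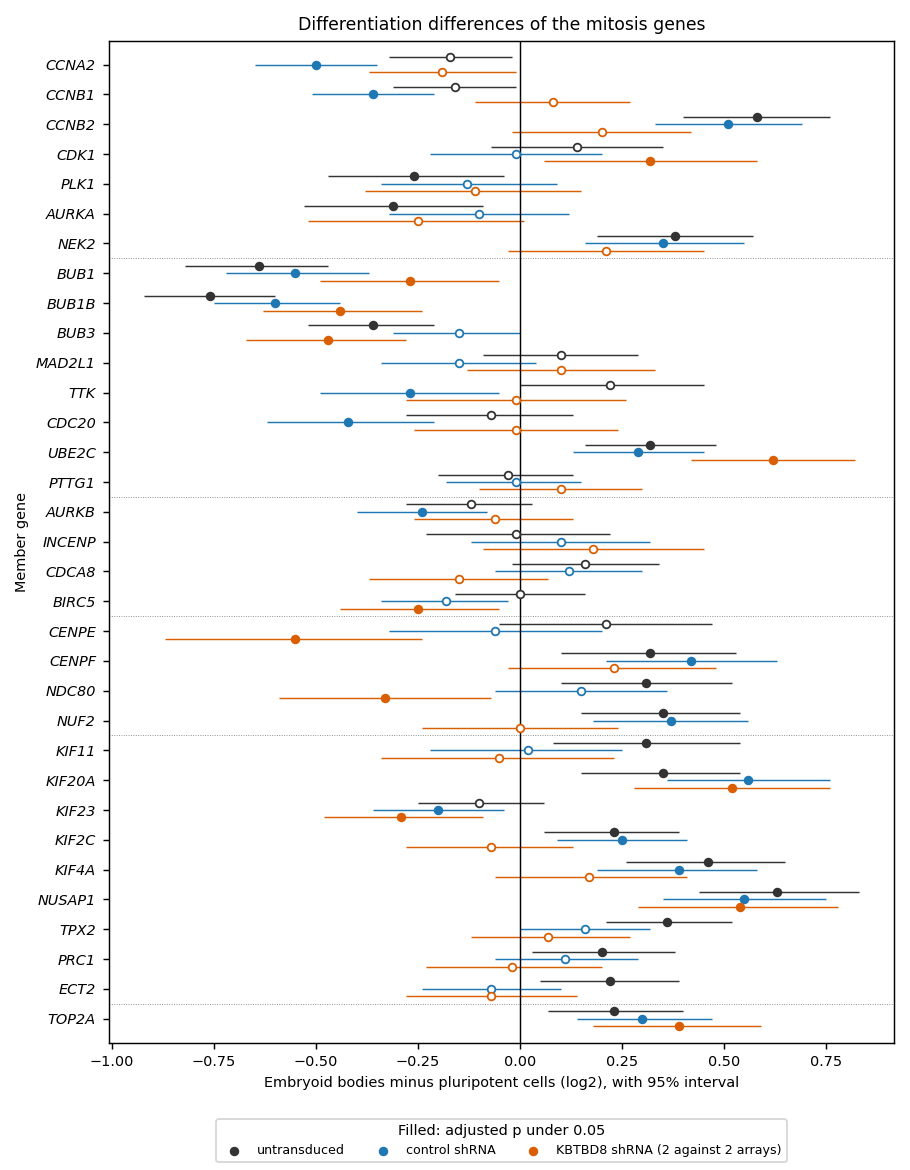
Difference between embryoid bodies and pluripotent cells (x axis, log2, with its 95% interval) for each of the 33 mitosis genes (y axis, in blocks by role) in untransduced cells, with the control shRNA and with the KBTBD8 shRNA, where filled points have an adjusted p under 0.05. BUB1 and BUB1B lie to the left of 0 in all 3 treatments, and NUSAP1, KIF20A, UBE2C and TOP2A to the right.

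With the control shRNA, 4 of 9 spindle and midzone genes and 2 of 4 kinetochore genes rose in differentiation, while cyclins A2 and B1 and 4 of 8 checkpoint and anaphase genes fell. In all, 10 of 33 rose and 8 fell, while 23.1% of all genes tested rose and 25.2% fell. Their median difference was -0.01, beside -0.02 over all genes, and 0 reached 2-fold, as 7.55% of all genes did with a call. In the fit of 18 arrays 8 rose and 6 fell, beside 17.1% and 16.7% of all genes.

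Cyclins split here. CCNA2 read 9.30, 9.34 and 9.30 in pluripotent cells and 8.81, 8.81 and 8.83 in embryoid bodies and fell by 0.50 ± 0.07 (1.41-fold, adjusted p = 2.23e-05). CCNB1 read 10.56, 10.45 and 10.60 and 10.16, 10.16 and 10.20 and fell by 0.36 ± 0.07 (adjusted p = 5.58e-04). CCNB2 read 8.86, 8.89 and 8.79 and 9.46, 9.27 and 9.33 and rose by 0.51 ± 0.09 (adjusted p = 1.14e-04). The 2 B-type cyclins therefore moved in opposite directions, each with no overlap between the states. NEK2 rose by 0.35 ± 0.09. CDK1 (7.64, 8.03 and 7.94 against 7.89, 7.84 and 7.84) and PLK1 (9.89, 9.99 and 9.94 against 9.87, 9.79 and 9.77) differed by -0.01 ± 0.10 and -0.13 ± 0.10 and were not called.

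Among checkpoint and anaphase genes, 4 of 8 fell and 1 rose. BUB1B went from 10.38, 10.46 and 10.55 to 9.88, 9.88 and 9.85 and fell by 0.60 ± 0.08 (adjusted p = 6.82e-06). BUB1 went from 9.40, 9.48 and 9.51 to 9.05, 8.79 and 8.92 and fell by 0.55 ± 0.08 (adjusted p = 5.10e-05). CDC20, the activator of the anaphase-promoting complex, went from 9.35, 9.19 and 9.42 to 8.80, 8.96 and 8.95 and fell by 0.42 ± 0.10 (adjusted p = 0.00197). TTK fell by 0.27 ± 0.10 (adjusted p = 0.043), a call lost in 11 of 25 other settings. UBE2C rose by 0.29 ± 0.08. BUB3 was not called (-0.15 ± 0.07, adjusted p = 0.102), and its values overlapped.

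In the passenger complex AURKB went from 9.57, 9.56 and 9.61 to 9.28, 9.36 and 9.37, with no overlap, and fell by 0.24 ± 0.07 (adjusted p = 0.0131); the other 3 genes were not called. CENPF rose from 9.70, 9.89 and 9.88 to 10.32, 10.19 and 10.22 (0.42 ± 0.10, adjusted p = 0.00214), and NUF2 rose by 0.37 ± 0.09. NDC80, the partner of NUF2, was not called (0.15 ± 0.10). Of the 9 spindle genes, 4 rose and 1 fell. KIF20A, the midzone motor that carries passenger proteins, went from 8.2, 8.34 and 8.31 to 8.89, 8.81 and 8.83 and rose by 0.56 ± 0.09 (adjusted p = 1.04e-04). NUSAP1 went from 9.01, 9.19 and 9.19 to 9.83, 9.59 and 9.63 and rose by 0.55 ± 0.09. KIF4A, from 8.95, 8.79 and 8.98 to 9.19, 9.25 and 9.45, rose by 0.39 ± 0.09, KIF2C rose by 0.25 ± 0.08 and TOP2A by 0.30 ± 0.08. KIF23 fell by 0.20 ± 0.07 (adjusted p = 0.0377), without its call in 8 of 25 other settings.

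With the KBTBD8 shRNA, on 2 arrays against 2, 5 of 33 genes rose and 7 fell, while 17.3% of all genes tested rose and 21.1% fell. The median difference was -0.01 (0.00 over all genes), and 0 reached 2-fold, as 7.42% of all genes did with a call. On all 18 arrays with the labels as given, limma called 0 of the 33 genes and 0 of all 14209 (0 in each direction), and 2 of the 33 had an unadjusted p under 0.05. The calls below therefore rest on leaving both arrays out.

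UBE2C rose most, from 9.31 and 9.39 in pluripotent cells to 9.94 and 10 in embryoid bodies (0.62 ± 0.09, 1.53-fold, adjusted p = 6.66e-05). The arrays read apart were 9.96 for the one labelled pluripotent and 9.23 for the other, so each lay beside the opposite state. NUSAP1 went from 9.14 and 9.26 to 9.60 and 9.87 (0.54 ± 0.11, adjusted p = 0.00144), and KIF20A from 8.06 and 8.36 to 8.67 and 8.79 (0.52 ± 0.11, adjusted p = 0.00176). TOP2A went from 10.34 and 10.33 to 10.72 and 10.72 (0.39 ± 0.10, adjusted p = 0.00424). CDK1 rose from 7.62 and 7.71 to 7.90 and 8.07 (0.32 ± 0.12, adjusted p = 0.0471), a call lost in 17 of 25 other settings.

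The decreases included the BUB genes again. BUB3 went from 10.28 and 10.31 to 9.80 and 9.84 and fell by 0.47 ± 0.09 (adjusted p = 6.10e-04). BUB1B went from 10.45 and 10.52 to 10.12 and 9.98 and fell by 0.44 ± 0.09 (adjusted p = 0.00132). BUB1 fell by 0.27 ± 0.10 at the edge of the threshold (adjusted p = 0.0497), from 9.30 and 9.30 to 9.07 and 9.0. The arrays read apart lay outside the range of their labelled groups for all 3, at 9.76 and 10.25 for BUB3, 9.97 and 10.70 for BUB1B and 8.58 and 9.37 for BUB1, with the library labelled pluripotent at the lower value each time. CENPE and NDC80 also fell with this shRNA. CENPE went from 8.75 and 8.81 to 8.19 and 8.27 (-0.55 ± 0.15, adjusted p = 0.00772), and NDC80 from 9.14 and 9.23 to 8.85 and 8.86 (-0.33 ± 0.12, adjusted p = 0.0418). KIF23 fell by 0.29 ± 0.09 (9.66 and 9.79 against 9.39 and 9.49) and BIRC5, the passenger protein survivin, by 0.25 ± 0.09 (adjusted p = 0.0432). CCNB1 (10.16 and 10.20 against 10.28 and 10.25), PLK1 (10.04 and 10.16 against 9.81 and 10.16) and AURKB (9.46 and 9.42 against 9.26 and 9.49) were not called. On all 18 arrays BUB1, NDC80 and KIF23 had the opposite sign, with differences of 0.08, 0.11 and 0.02. Without replicate 1 of the embryoid bodies, or without replicate 3 of the pluripotent cells, 6 of the 33 genes were called, with the remaining array of the group assumed to vary like the other groups.

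Across the 3 treatments, 29 of the 33 genes were called in at least 1 differentiation comparison, as were 9962 of all 14209 genes tested. UBE2C, KIF20A, NUSAP1 and TOP2A rose in all 3 (12.1% of the genes, as did 10.2% of all genes tested), and BUB1 and BUB1B fell in all 3 (6.06%, against 12.2%). NDC80 was the 1 gene called in both directions (3.03%, against 3.12% of all genes tested), higher in untransduced embryoid bodies and lower with the KBTBD8 shRNA. MAD2L1, PTTG1, INCENP and CDCA8 were called in none (12.1%, against 29.9% of all genes tested).

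**Figure D3:**
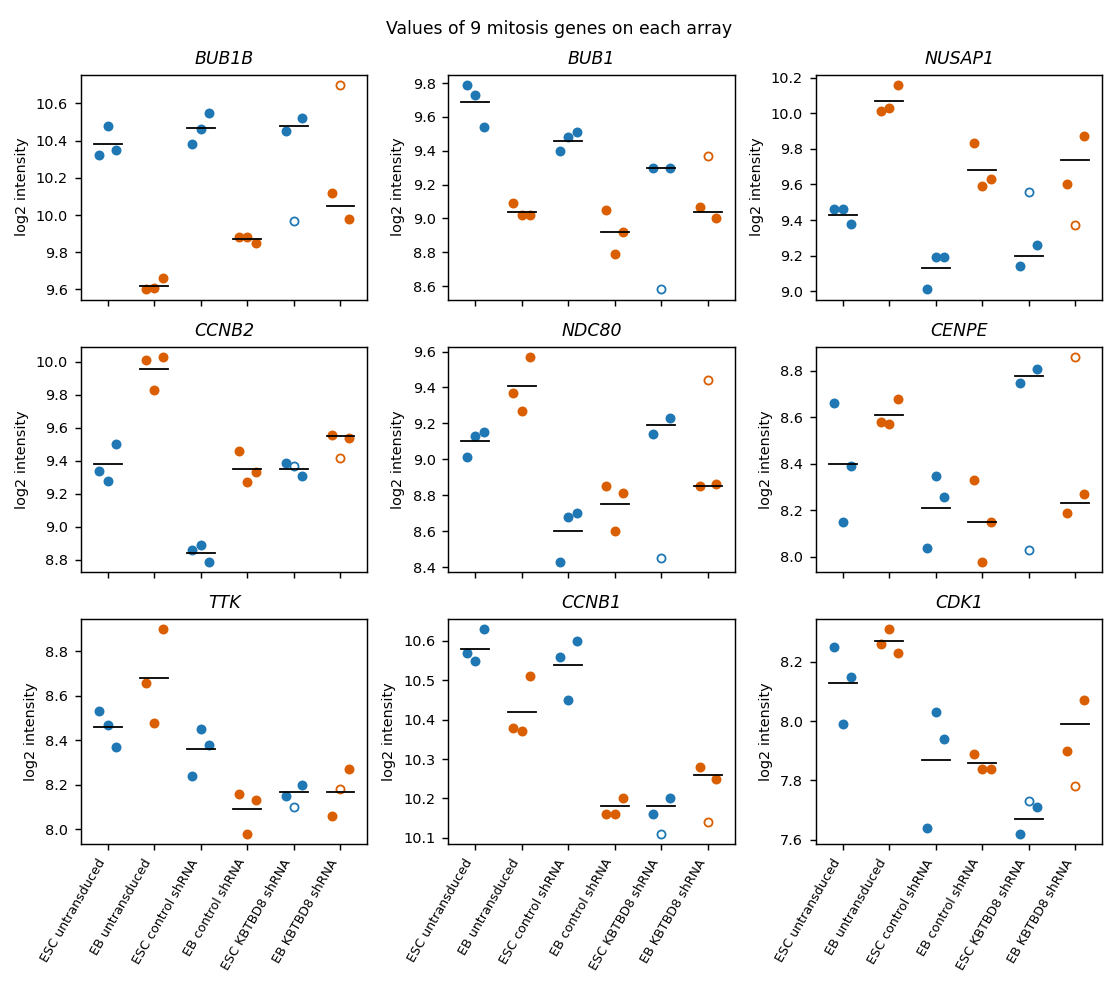
Log2 intensity (y axis) of 9 mitosis genes on each of the 18 arrays, by group (x axis; blue for pluripotent cells, ESC, and orange for embryoid bodies, EB), with bars at the group means of the 16 arrays used and open circles for the arrays read apart. BUB1B falls and NUSAP1 rises from pluripotent cells to embryoid bodies in each treatment, and the open circles of BUB1B lie with the opposite state.

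The control shRNA was set against untransduced cells to see how these genes differed between them. Whether the untransduced and transduced arrays were run together is not known here, so treatment and array run cannot be told apart. In pluripotent cells, 0 of 33 were higher and 10 were lower with the control shRNA, while 17.0% of all genes tested were higher and 12.1% lower. Their median difference was -0.13, beside 0.04 over all genes. CCNB2 had the largest difference, at 8.86, 8.89 and 8.79 with the control shRNA and 9.34, 9.28 and 9.50 without (-0.53 ± 0.09, adjusted p = 4.37e-04). NDC80 read 8.43, 8.68 and 8.70 against 9.01, 9.13 and 9.15 (-0.49 ± 0.10, adjusted p = 0.00212), and AURKA 7.77, 8.09 and 7.96 against 8.28, 8.61 and 8.33 (-0.46 ± 0.10, adjusted p = 0.00383). NEK2 read 8.13, 8.11 and 7.84 against 8.23, 8.38 and 8.50 (-0.35 ± 0.09, adjusted p = 0.0102). KIF2C, a motor that takes microtubules apart at kinetochores, read 7.06, 7.18 and 7.13 against 7.34, 7.54 and 7.53 (-0.34 ± 0.08, adjusted p = 0.00406). None of these 5 genes overlapped between the groups, which picking the largest called differences favours. CENPF, PTTG1, NUSAP1, BIRC5 and KIF23 were also lower, by 0.24 to 0.31, but a second probe set of BIRC5, with a lower mean, differed by 0.02. CCNB1, CDK1, PLK1 and AURKB were not called, with differences of -0.05, -0.26, 0.06 and 0.15. Fitted on these groups alone or on all 18 arrays, 4 of the 33 were lower and 0 higher (6.93% of all genes higher and 5.12% lower on 18 arrays).

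In embryoid bodies most of these genes were lower with the control shRNA than without a virus. Here 18 of 33 were lower and 3 higher, while 20.2% of all genes tested were lower and 24.6% higher, with a median difference of -0.25 beside 0.04. The lower genes came from all roles but chromatin: 5 of 7 cyclins and kinases, 3 of 8 checkpoint and anaphase genes, 2 of 4 passenger genes, 2 of 4 kinetochore genes and 6 of 9 spindle genes. With 18 arrays 14 were lower and 0 higher, beside 12.1% and 15% of all genes.

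NDC80 had the largest difference, with 8.85, 8.6 and 8.81 under the control shRNA and 9.37, 9.27 and 9.57 in untransduced embryoid bodies (-0.65 ± 0.10, 1.57-fold, adjusted p = 9.00e-05). CCNB2 read 9.46, 9.27 and 9.33 against 10.01, 9.83 and 10.03 (-0.60 ± 0.09, adjusted p = 4.12e-05). TTK read 8.16, 7.98 and 8.13 against 8.66, 8.48 and 8.90 (-0.60 ± 0.10, adjusted p = 2.98e-04). In each of these the 3 control shRNA arrays lay below all 3 untransduced arrays, which picking the largest called differences favours. CENPE read 8.33, 7.98 and 8.15 against 8.58, 8.57 and 8.68 (-0.46 ± 0.12, adjusted p = 0.00674). BIRC5 read 10.73, 10.67 and 10.71 against 11.11, 11.09 and 11.28 (-0.46 ± 0.07, adjusted p = 1.57e-04), but a second probe set of BIRC5, with a lower mean, differed by only -0.08. CDK1 was lower too, at 7.89, 7.84 and 7.84 against 8.26, 8.31 and 8.23 (-0.41 ± 0.10, adjusted p = 0.00346), as were CCNA2 (-0.41 ± 0.07) and CCNB1 (-0.25 ± 0.07), so the kinase and all 3 of its mitotic cyclins on the list were below untransduced cells. PLK1 and AURKB were not called (0.19 ± 0.10 and 0.03 ± 0.07).

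The 3 higher genes were INCENP, the scaffold of the passenger complex, BUB1B and BUB3. INCENP read 7.75, 7.6 and 7.67 against 7.40, 7.23 and 7.39 (0.33 ± 0.11, adjusted p = 0.0172). BUB1B read 9.88, 9.88 and 9.85 against 9.60, 9.61 and 9.66 (0.25 ± 0.08, adjusted p = 0.014) and BUB3 10.06, 9.90 and 10.01 against 9.77, 9.83 and 9.77 (0.20 ± 0.07, adjusted p = 0.0424). These 3 calls depended on the scaling. The medians of the untransduced arrays over all probe sets, 5.85 to 5.95, were all below those of the transduced arrays, 5.97 to 6.12, and with every array centred on its median, 24 of the 33 genes were lower and 0 higher, while the median of all genes moved from 0.04 to -0.14 and 27.4% of all called genes were higher, against 54.8% before. In pluripotent cells the same centring gave 15 lower and 0 higher, and 31.6% of all called genes higher against 58.4%. Quantile normalization gave 17 lower and 5 higher in embryoid bodies, where 44.8% of all called genes were higher, and 9 lower and 0 higher in pluripotent cells, where 48.1% were. The mitosis genes were lower relative to the median of all genes under each of these scalings.

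Whether the response to differentiation differed with the control shRNA was tested as the difference between the 2 responses, control shRNA minus untransduced cells. Of 33 genes 0 were higher and 2 were lower, while 8.26% of all genes tested were higher and 8.61% lower. Fewer of the mitosis genes were thus called than the background share. TTK read 8.53, 8.47 and 8.37 in untransduced pluripotent cells and 8.66, 8.48 and 8.90 in embryoid bodies, a difference of 0.22 short of the threshold. With the control shRNA it read 8.24, 8.45 and 8.38 and 8.16, 7.98 and 8.13 and fell, so the responses differed by -0.49 ± 0.15 (adjusted p = 0.0305). CCNA2 read 9.45, 9.38 and 9.38 and 9.14, 9.25 and 9.30 without a virus, and its response with the control shRNA was lower, with a difference of -0.33 ± 0.10 (adjusted p = 0.0337). With 18 arrays 0 were called (2.88% of all genes higher, 2.36% lower), while 4 of the 33 had an unadjusted p under 0.05. Both calls were lost on leaving out any of several single arrays. Among these were replicate 3 of the untransduced embryoid bodies, replicates 2 and 3 of the control shRNA pluripotent cells and replicate 2 of the control shRNA embryoid bodies.

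The KBTBD8 shRNA was compared with the control shRNA to ask which genes differed when KBTBD8 was targeted. In pluripotent cells, where the knockdown was seen, 8 of 33 genes were higher and 3 lower, while 8.43% of all genes tested were higher and 5.58% lower. Their median difference was 0.10, beside -0.01 over all genes. On all 18 arrays 3 were higher (CCNB2, NUF2 and KIF4A) and 2 lower (CCNB1 and MAD2L1), beside 2.29% and 2.84% of all genes. Fitted on these groups alone 5 were called. The count depended on single arrays: it was 2 without replicate 3 and 4 without replicate 1 of the KBTBD8 shRNA, and 7, 6 and 7 without replicates 1, 2 and 3 of the control shRNA.

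Kinetochore genes held the largest differences, with 3 of 4 higher. NDC80 read 9.14 and 9.23 with the KBTBD8 shRNA and 8.43, 8.68 and 8.70 with the control (0.58 ± 0.11, 1.5-fold, adjusted p = 0.00265). CENPE read 8.75 and 8.81 against 8.04, 8.35 and 8.26 (0.57 ± 0.14, adjusted p = 0.0113). In both, the array read apart was far from its labelled group, at 8.45 for NDC80 and 8.03 for CENPE, and with it the differences were 0.34 and 0.32 and neither was called. NUF2 was higher by 0.37 ± 0.10 (adjusted p = 0.0241), and was called on 18 arrays too (0.36). Among cyclins and kinases, CCNB2 read 9.39 and 9.31 against 8.86, 8.89 and 8.79 (0.51 ± 0.10, adjusted p = 0.00234), with 9.37 on the array read apart, and it kept its call in all 25 other settings. NEK2 was higher (0.34 ± 0.10, adjusted p = 0.0357). CCNB1 went the other way, at 10.16 and 10.20 against 10.56, 10.45 and 10.60 (-0.35 ± 0.08, adjusted p = 0.00827).

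Of the spindle genes, KIF2C, KIF4A and KIF23 were higher. KIF2C read 7.51 and 7.53 against 7.06, 7.18 and 7.13 (0.39 ± 0.09, adjusted p = 0.00678), and KIF4A 9.22 and 9.36 against 8.95, 8.79 and 8.98 (0.38 ± 0.10, adjusted p = 0.0202). KIF23 was higher by 0.28 ± 0.08 (adjusted p = 0.0369). Among checkpoint and anaphase genes, MAD2L1, which inhibits CDC20, read 8.85 and 8.99 against 9.24, 9.27 and 9.19 (-0.31 ± 0.10, adjusted p = 0.0486), and UBE2C 9.31 and 9.39 against 9.59, 9.61 and 9.64 (-0.26 ± 0.08, adjusted p = 0.0493). Both lie at the edge of the threshold and lost their calls in 16 and 17 of 25 other settings. BUB1B, the gene that fell most in untransduced differentiation, differed by 0.02 (95% interval -0.16 to 0.20) and was not called. CDK1 read 7.62 and 7.71 against 7.64, 8.03 and 7.94, PLK1 10.04 and 10.16 against 9.89, 9.99 and 9.94 and AURKB 9.46 and 9.42 against 9.57, 9.56 and 9.61, and these were not called (-0.20 ± 0.11, 0.16 ± 0.11 and -0.14 ± 0.08).

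Of the genes higher with the KBTBD8 shRNA, 5 were lower with the control shRNA than in untransduced cells, and both comparisons use the same control shRNA arrays. The group means set side by side, in the order untransduced, control shRNA and KBTBD8 shRNA, were 9.38 ± 0.12, 8.84 ± 0.05 and 9.35 ± 0.06 for CCNB2. For NDC80 they were 9.10 ± 0.08, 8.6 ± 0.15 and 9.19 ± 0.07. For KIF2C they were 7.47 ± 0.11, 7.12 ± 0.06 and 7.52 ± 0.01, and for NEK2 8.37 ± 0.13, 8.02 ± 0.16 and 8.36 ± 0.01. KIF23 gave 9.69 ± 0.10, 9.45 ± 0.02 and 9.73 ± 0.09 (SD, n = 3, 3 and 2 arrays). In each, the KBTBD8 shRNA mean lay within 0.09 of the untransduced mean, which was not tested. These 5 were picked by calls in both comparisons, which share the control shRNA arrays, so this nearness is partly built in. The other genes higher with the KBTBD8 shRNA, CENPE, NUF2 and KIF4A, were not called between the first groups. Their KBTBD8 shRNA means lay above both others. CENPE gave 8.4, 8.21 and 8.78, NUF2 8.16, 8.05 and 8.42, and KIF4A 8.89, 8.91 and 9.29. CCNB1 had another pattern, with 10.58 ± 0.04, 10.54 ± 0.08 and 10.18 ± 0.03: it was not called between the first groups, and it was lower with the KBTBD8 shRNA.

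In embryoid bodies, limma called 0 of 33 genes between the shRNAs, on 16 arrays and on 18, and 2 and 4 of them had an unadjusted p under 0.05. Of all genes tested, 2.84% were higher and 2.96% lower (0.971% and 1.51% on 18 arrays). The median difference of the mitosis genes was 0.08 and their differences ran from -0.17 to 0.26. CCNA2 came nearest to the threshold, at 9.07 and 9.08 against 8.81, 8.81 and 8.83 (0.26 ± 0.08, adjusted p = 0.0704). BUB1B differed by 0.18 (95% interval 0.00 to 0.35), CCNB1 by 0.09 (-0.08 to 0.26) and CDK1 by 0.13 (-0.10 to 0.37), so with 2 arrays against 3 the intervals take in differences of that size.

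**Figure D4:**
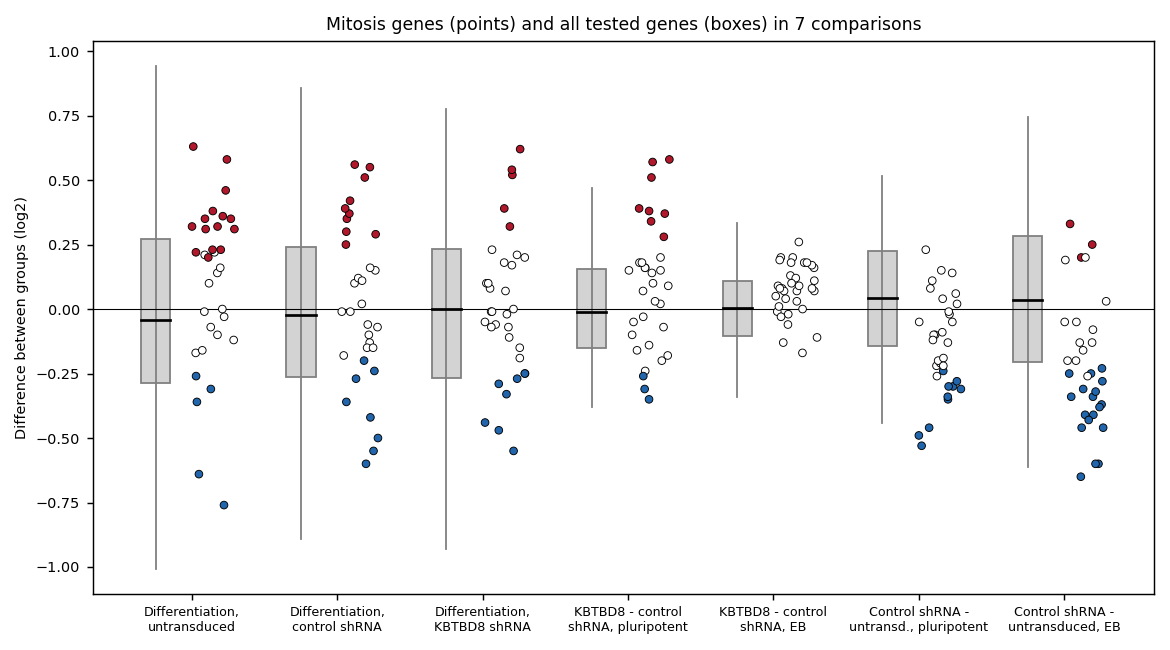
Log2 differences of the 33 mitosis genes (points; red higher, blue lower, white not called) and of all 14209 genes tested (grey boxes at the quartiles with a black median and whiskers from the 5th to the 95th percentile) in 7 comparisons (x axis). The points lie mostly below 0 for the control shRNA against untransduced cells in embryoid bodies, with 18 lower and 3 higher, and all are white for the shRNAs in embryoid bodies.

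The differentiation responses with the KBTBD8 and the control shRNA were also tested against each other: of 33 genes 1 was higher and 0 lower, while 3.74% of all genes tested were higher and 6.12% lower, so the count is no larger than the background. That gene was CCNB1, which fell with the control shRNA and did not with the KBTBD8 shRNA (0.08), a difference of 0.44 ± 0.11 (adjusted p = 0.0213). On all 18 arrays CCNB1 remained called (0.42), beside 1.61% of all genes higher and 2.06% lower. Its call was lost without any 1 of the KBTBD8 shRNA arrays in use, without replicate 3 of the control shRNA pluripotent cells and with arrays centred on the median. For NDC80 the responses with the 2 shRNAs differed by -0.49 ± 0.16 (adjusted p = 0.0645), and its responses in untransduced and KBTBD8 shRNA cells, which had opposite signs, were not tested against each other.

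The lists that follow are read against the shares of all genes called. In differentiation 25.8% of all genes tested rose and 26.3% fell in untransduced cells, 23.1% and 25.2% with the control shRNA and 17.3% and 21.1% with the KBTBD8 shRNA. For control shRNA against untransduced cells 17.0% were higher and 12.1% lower in pluripotent cells and 24.6% and 20.2% in embryoid bodies. For the KBTBD8 against the control shRNA these shares were 8.43% and 5.58%, and 2.84% and 2.96%. For the response to differentiation they were 8.26% and 8.61% between control shRNA and untransduced cells, and 3.74% and 6.12% between the shRNAs. With all 18 arrays, 0 genes of any of these lists were called in KBTBD8 shRNA differentiation, as for all genes tested, so every call given for it below rests on leaving both arrays read apart out.

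Other genes of mitosis were taken from a list of 98, of which 96 were tested. In untransduced differentiation 32 rose (33.3%) and 19 fell (19.8%). WEE1, the kinase that keeps CDK1 off, rose by 1.03 ± 0.17, and KIF15, a spindle motor that backs up KIF11, by 0.95 ± 0.10. NCAPG2, a condensin II subunit, fell by 0.81 ± 0.09 (adjusted p = 7.67e-05, 9.55e-07 and 1.73e-06 in that order). With the control shRNA 17 rose and 34 fell. WEE1 rose by 1.09 ± 0.17 and CENPC, which anchors the kinetochore to centromeric chromatin, by 1.05 ± 0.11, while SKA3, a protein that couples kinetochores to microtubules, fell by 1.04 ± 0.11. With the KBTBD8 shRNA 6 rose and 23 fell, with SKA3 at -1.25 ± 0.14 and ZWILCH, part of the complex that brings dynein to kinetochores, at -0.85 ± 0.12 (adjusted p = 2.66e-06 and 3.79e-05). On 18 arrays these were -0.34 and -0.23.

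Between control shRNA and untransduced cells, the same list gave 16 higher and 12 lower in pluripotent cells and 5 higher and 31 lower in embryoid bodies. WEE1 was higher in both states (0.77 ± 0.17 and 0.82 ± 0.17), SKA1 was lower in pluripotent cells (-0.66 ± 0.09) and KIF15 in embryoid bodies (-0.71 ± 0.10). The response to differentiation was lower with the control shRNA for 11 of the 96 and higher for 0, with KIF15 at -0.89 ± 0.14 and STAG1, a cohesin subunit, at -0.88 ± 0.15. Only KIF15, STAG1 and FBXO5 of these kept their calls on 18 arrays. The KBTBD8 shRNA against the control gave 8 higher and 4 lower in pluripotent cells, where DEPDC1 (0.73 ± 0.13) and SKA1 (0.58 ± 0.10) were higher. On 18 arrays 2 were higher and 4 lower, and DEPDC1 (0.47) and SKA1 (0.27) were not called. In embryoid bodies limma called 0 of 96, with 3 at an unadjusted p under 0.05. The responses with the 2 shRNAs differed for 3, DEPDC1 (-0.82 ± 0.19), KNL1 (-0.65 ± 0.17) and TRIP13 (0.61 ± 0.13). Of these, TRIP13 was called on 18 arrays (0.95), and DEPDC1 (-0.29) and KNL1 (-0.51) were not.

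The regulators of mitotic promoters were a list of 15, all tested. In untransduced differentiation 7 rose and 2 fell. RBL1, a pocket protein of the repressing complex, rose by 0.96 ± 0.08 and LIN54, the subunit that binds the cell cycle homology region, by 0.57 ± 0.10. MYBL2 and FOXM1, the activators on MuvB, were the 2 that fell, by 0.45 ± 0.10 and 0.42 ± 0.09 (adjusted p = 0.0011 and 6.05e-04). With the control shRNA 3 rose and 6 fell, and MYBL2 and FOXM1 fell by 1.02 ± 0.10 and 0.62 ± 0.09 (adjusted p = 3.42e-07 and 1.75e-05). With the KBTBD8 shRNA 4 rose and 4 fell. NFYA, a subunit of the CCAAT-binding NF-Y, rose by 0.90 ± 0.11 there, RBBP4 rose by 0.60 ± 0.11, E2F5 fell by 0.51 ± 0.13 and FOXM1 fell by 0.48 ± 0.11. FOXM1 therefore fell in all 3 treatments, in the last only with the arrays read apart left out (-0.11 with them, with NFYA at 0.33, RBBP4 at 0.22 and E2F5 at -0.05, none called).

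Between control shRNA and untransduced cells, 4 regulators were higher and 0 lower in pluripotent cells, with MYBL2 at 0.63 ± 0.10. In embryoid bodies 0 were higher and 5 lower, with LIN9, a MuvB subunit, at -0.59 ± 0.09 and E2F5 at -0.58 ± 0.10. The response was lower with the control shRNA for 3, RBL1 (-0.79 ± 0.12), MYBL2 (-0.57 ± 0.14) and LIN9 (-0.54 ± 0.12), of which RBL1 alone kept its call on 18 arrays. The KBTBD8 shRNA against the control gave 2 higher and 2 lower in pluripotent cells, with NFYA at -0.62 ± 0.10 and NFYC, another NF-Y subunit, at 0.51 ± 0.10. On 18 arrays NFYC alone of the 4 was called (0.45), and NFYA was at -0.34. In embryoid bodies it gave 0 in limma, with 2 at an unadjusted p under 0.05. The responses with the 2 shRNAs differed for MYBL2 (0.55 ± 0.15), which was called on 18 arrays too (0.83).

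Of 13 G1 cyclins, kinases and E2F or RB genes, 7 rose and 2 fell in untransduced differentiation. CDK6, a G1 kinase, fell by 1.39 ± 0.15, and CCNE2, cyclin E2, rose by 0.70 ± 0.14. With the control shRNA 2 rose and 5 fell, with CCNE1 at -1.13 ± 0.10 and CDC25A, a phosphatase also counted in the list of other mitosis genes, at -0.71 ± 0.08. With the KBTBD8 shRNA 2 rose and 3 fell, with CDK6 at -1.74 ± 0.19 and CCNE1 at -0.96 ± 0.12 (-0.40 and -0.36 on 18 arrays, neither called). The response was lower with the control shRNA than without a virus for 8 of the 13 and higher for 1, CDK6 (1.04 ± 0.22). On 18 arrays only CDK4 and E2F3, both lower, kept their calls in this comparison. CDK6 was also higher with the KBTBD8 shRNA than with the control in pluripotent cells (1.12 ± 0.17, adjusted p = 5.29e-04), where 2 of the 13 were higher and 1 lower. With the array read apart CDK6 was at 0.37 and was not called, and 0 were higher and 1 lower. In embryoid bodies that comparison gave 1 higher, CCND2 (0.30 ± 0.08), and 1 lower, RB1 (-0.40 ± 0.10), of which CCND2 was called on 18 arrays (0.33) and RB1 was not (-0.30). The responses with the 2 shRNAs differed for CDK6, lower with the KBTBD8 shRNA (-1.38 ± 0.24), and E2F3, higher (0.49 ± 0.14). On 18 arrays neither was called, with CDK6 at -0.05. Control shRNA against untransduced cells gave 4 higher and 0 lower in pluripotent cells, with CCND1 at 0.62 ± 0.10, and 2 higher and 7 lower in embryoid bodies, with E2F2 at -0.83 ± 0.11.

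Of the 7 CDK inhibitors, 4 were tested. CDKN1B, or p27, rose by 0.61 ± 0.09 in untransduced differentiation and 0.68 ± 0.09 with the control shRNA. CDKN1A, or p21, rose by 1.17 ± 0.15 with the control shRNA and 0.73 ± 0.19 with the KBTBD8 shRNA (0.19 and not called on 18 arrays). Its response was larger with the control shRNA than in untransduced cells (1.13 ± 0.21, adjusted p = 0.0016), a call lost on 18 arrays. Both were lower with the control shRNA than without a virus in pluripotent cells (-0.63 ± 0.09 and -0.56 ± 0.15). In embryoid bodies CDKN1B was lower (-0.57 ± 0.09) and CDKN1A higher (0.56 ± 0.15). CDKN1B was higher with the KBTBD8 shRNA than with the control in pluripotent cells (0.65 ± 0.10, adjusted p = 3.35e-04), also on 18 arrays (0.64). Its response was lower with the KBTBD8 shRNA than with the control (-0.47 ± 0.13), a call lost on 18 arrays (-0.64). Between the shRNAs limma called 0 of the 4 in embryoid bodies, with 1 at an unadjusted p under 0.05.

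Of 32 replication genes, 31 were tested, and 7 rose and 6 fell in untransduced differentiation, with MCM7 at 0.57 ± 0.09 and GINS1 at -0.56 ± 0.09. With the control shRNA 1 rose and 19 fell, and with the KBTBD8 shRNA 4 rose and 8 fell. MCM5, a subunit of the replicative helicase, fell by 0.95 ± 0.10 and 0.81 ± 0.12, and CDC6, which loads the helicase, by 0.80 ± 0.09 and 0.67 ± 0.11. On 18 arrays MCM5 was at -0.24 and CDC6 at -0.10 with the KBTBD8 shRNA, neither called. The response was lower with the control shRNA than in untransduced cells for 12 of 31 and higher for 0, with MCM7 at -0.91 ± 0.13 and UHRF1 at -0.89 ± 0.23. On 18 arrays only MCM2, MCM7, PCNA and RRM2 of these kept their calls. In embryoid bodies 14 were lower with the control shRNA than without a virus and 0 higher, with PCNA, the polymerase clamp, at -1.01 ± 0.09. In pluripotent cells 10 were higher, with MCM7 at 1.04 ± 0.09, and 3 lower. With the KBTBD8 shRNA against the control, 7 were lower and 0 higher in pluripotent cells, with RRM2, a subunit of ribonucleotide reductase, at -1.32 ± 0.10 (adjusted p = 1.10e-06) and PCNA at -0.75 ± 0.10. On 18 arrays 7 were lower and 0 higher too, RRM2 and PCNA among them (-1.25 and -0.73). In embryoid bodies 1 was higher, MCM3 (0.35 ± 0.09), and 2 lower, RRM2 (-0.44 ± 0.10) and TYMS (-0.39 ± 0.08), and on 18 arrays RRM2 and TYMS were called. The response was higher with the KBTBD8 shRNA than with the control for 5 of 31 and lower for 0. RRM2 was at 0.88 ± 0.14 and PCNA at 0.73 ± 0.14, and on 18 arrays 6 were higher and 0 lower, RRM2 (0.72) and PCNA (0.73) among them.

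Markers of the cells moved with these comparisons. Of the 12 pluripotency markers 10 were measured and 8 of them fell in each treatment. The medians of these 10 were 10.67 to 10.93 on the pluripotent arrays in use and 8.34 to 8.71 in untransduced embryoid bodies. In control shRNA embryoid bodies they were 9.26 to 9.46, and in those of the KBTBD8 shRNA 9.75 to 9.90. POU5F1 and NANOG were not analysed here. The median of 9 neural progenitor markers was 5.55 to 5.83 in pluripotent cells and 9.54 to 9.61, 7.49 to 7.66 and 8.39 to 8.59 in the 3 kinds of embryoid bodies in the same order. The 7 neural crest markers had medians of 5.72 to 5.95, 9.37 to 9.44 and 7.34 to 7.58 in that order, and 4, 7 and 6 of the 7 exceeded the array's 40th percentile. On 16 arrays all 7 were lower in embryoid bodies with the KBTBD8 shRNA than with the control shRNA (limma, adjusted p under 0.05), where no mitosis gene was called. On 18 arrays 5 were, without TFAP2A and TFAP2B. The medians of 7 endoderm markers were 5.29 to 5.35, 7.05 to 7.24 and 5.66 to 5.72, and those of 9 measured markers of postmitotic neurons 6.35 to 6.78, 6.47 to 6.51 and 5.86 to 5.93. The endoderm markers did not move together. In control shRNA embryoid bodies AFP, TTR, APOA2 and APOA1 had means of 7.33, 7.97, 8.2 and 7.13. SOX17, FOXA2 and GATA4 had means of 5.63, 5.85 and 5.66 there, and their responses were not called against untransduced cells. The median of 7 mesoderm markers was between 4.47 and 5.55 on all 18 arrays, but single markers moved, such as MEF2C, a muscle and heart transcription factor named after its values were seen, which rose by 2.39 ± 0.16 in control shRNA differentiation. On the arrays read apart the pluripotency median was 9.72 for the library labelled pluripotent and 10.55 for the other. The embryoid bodies of the 3 treatments thus differed in their markers. In the main fit, mitosis genes were called there only between control shRNA and untransduced embryoid bodies. Embryoid bodies with the KBTBD8 shRNA were not tested against untransduced ones. The part of the markers in the differences of the mitosis genes was not tested.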

How the data were processed

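The deposited values are log2 intensities per probe set of a gene-level microarray, which the authors made with GCRMA, per the submitters' processing notes. The version is not given in the sources used here, nor is whether all arrays were normalized together. The log base was taken from the method and the range of the values. Of 33297 probe sets, 19460 name 1 gene symbol in the platform annotation, 1754 name several and 12083 name none. A gene was read on its probe set of 1 symbol with the highest mean over 16 arrays.

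Python 3.11.15 and pandas 2.3.3 were used for tables, and limma 3.58.1 in R 4.3.3 for tests. A linear model over 6 groups and 16 arrays with 10 residual degrees of freedom was fitted to 14209 genes whose values exceeded the array's 40th percentile on 3 or more of the 18 arrays, with moderated statistics and Benjamini-Hochberg adjustment over all of them. A gene was called at an adjusted p under 0.05, and errors on differences are standard errors. The test was checked on simulated data. Array number limits the precision.

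Mitosis genes and the other lists were chosen with earlier results of these data known. Values on every array were given for CDK1, CCNB1, AURKB and PLK1 and, in each comparison, for up to 5 called genes with the largest increases and up to 5 with the largest decreases. A gap without overlap is therefore largely built in for these called genes, and no share of all genes without overlap is given. From the other lists, 2 to 4 called genes with the largest changes were named in a comparison, and fewer where fewer were called or the gene had been named already. Alternatives changed the arrays and groups fitted, the filter, the probe set, the scaling between arrays, the variance prior and the replicate number as a block.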

Additional observations from a re-analysis of the deposited data

Results flagged for a closer look

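The response to differentiation differed between treatments for 3 mitosis genes by a test of the difference itself (limma, Benjamini-Hochberg over 14209 genes). For the control shRNA minus untransduced cells these were 2 of 33 genes, while 8.26% of all genes tested were higher and 8.61% lower. CCNA2, cyclin A2, had a response that was -0.33 on the log2 scale with the control shRNA relative to untransduced cells, and TTK, the checkpoint kinase, one of -0.49. Neither was called on all 18 arrays, and both calls were lost without replicate 3 of either untransduced group, replicate 2 of either control shRNA group or replicate 3 of the control shRNA pluripotent cells. For the KBTBD8 minus control shRNA it was 1 of 33 genes, while 3.74% of all genes were higher and 6.12% lower. CCNB1, cyclin B1, had a response that was 0.44 higher with the KBTBD8 shRNA than with the control shRNA, on 2 arrays in each KBTBD8 shRNA group. It was called on all 18 arrays too, but not without any 1 of the 4 KBTBD8 shRNA arrays in use or without replicate 3 of the control shRNA pluripotent cells. Neither count is above the share of all genes.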

How the results depend on the processing

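Across the 25 alternatives, 41 of 99 called gene results (95 of mitosis genes and 4 of KBTBD8) kept direction and call under each alternative that could be run for them. With all 18 arrays and labels as given, 53 were kept, 43 lost their call and 3 reversed, all with the KBTBD8 shRNA in differentiation: BUB1 at 0.08, NDC80 at 0.11 and KIF23 at 0.02. The counts of mitosis genes called were then 11 in untransduced differentiation, 0 in that with the KBTBD8 shRNA, 5 for KBTBD8 against control shRNA and 4 for control shRNA against untransduced cells (both pluripotent), and 0 for the difference in response of control shRNA and untransduced cells. Only the groups compared gave 13 in untransduced differentiation, 5 for the shRNAs and 4 for control shRNA against untransduced pluripotent cells, where fewer arrays entered the fit. Without the filter on low values, 7 were called for the shRNAs in pluripotent cells and 1 for the response of control shRNA against untransduced cells. The 60th percentile filter gave 1 for the shRNAs in embryoid bodies and 2 for the response between the shRNAs. Quantile normalization gave 1 and 3 for these, and the trended, robust variance prior 1 and 4. With arrays centred on the median, 7 were called for the shRNAs in pluripotent cells and 0 for the response between the shRNAs, and the median difference of control shRNA against untransduced cells was -0.24 in pluripotent cells and -0.42 in embryoid bodies. The cause was not tested.

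Leaving out 1 array at a time kept 1392 of 1584 gene results and lost the call of 192. The count called ranged from 6 to 12 for differentiation with the KBTBD8 shRNA, from 2 to 11 for the shRNAs in pluripotent cells, and from 0 to 2 for each difference in response. For control shRNA minus untransduced it was 0 or 1 without replicate 2 or 3 of either group's arrays in either state. For the KBTBD8 minus control shRNA it was 0 without any KBTBD8 shRNA array or without replicate 3 of the control shRNA pluripotent cells, and 2 without replicate 2 of the control shRNA embryoid bodies. The median difference in control shRNA differentiation ranged from -0.08 to 0.07.

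The replicate numbers did not pair the arrays throughout (36 correlations of same-numbered deviations, from -0.377 to 0.433). Among the control shRNA pluripotent cells and both KBTBD8 shRNA groups, however, the same-numbered correlations were all positive, from 0.317 to 0.433. With 2 arrays in use in a KBTBD8 shRNA group, the deviations of its arrays mirror each other, so these correlations are not independent. With the replicate number as a block, 19, 19 and 10 genes were called in the differentiation comparisons (untransduced, control and KBTBD8 shRNA), 9 and 0 between the shRNAs (pluripotent, embryoid bodies), 10 and 21 for control shRNA against untransduced cells, and 2 and 1 for the differences in response.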
